A study of Rattus norvegicus with 7 samples.

Results

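The genes described here encode junction proteins and transporters of the blood-brain barrier, measured in the brain of rats with an embolic stroke. In this model (eMCAo) the middle cerebral artery is occluded by injecting an embolus, which cuts off the blood supply on one side of the brain. The set was chosen by gene symbol and named 9 genes, the junction genes Cldn1, Cldn5, Cldn10, Ocln and Tjp1 and the transporter genes Slco1c1, Slco1a4, Abcb1a and Abcg2. Of these, 7 had a probe among the 13337 named genes of the array, and each of the 7 had 1 probe. Slco1a4 and Abcb1a had no probe under their symbol or gene identifier and were left out. Cldn1 was detected on 3 of 7 arrays, Ocln on 6, and the other 5 genes on all 7.

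The mRNA data were 7 Illumina bead arrays for the rat, which per the labels were positions of 1 beadchip. One array held RNA of normal rats, which had no surgery, and 1 array each held RNA taken 12, 24, 48, 72, 120 and 168 hrs after eMCAo. All rats were male Wistar rats of 280 to 320 g, with no drug treatment, and the labels give the tissue of all 7 samples, the normal one included, as ischemic brain. The methods call 12 and 24 hrs the acute phase and the later times the recovery phase, and they kept only operated animals whose blood flow on the occluded side dropped and whose neurological score reached a set grade. No group had a second array, the sources do not say if RNA was pooled over animals, and the brain region taken is not given.

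Between 8656 and 9066 named genes were detected per array, where detected means above a limit of 8.72 to 10.1 intensity units set from the negative values of the same array. Markers of neurons were detected on the normal array for 12 of 12 genes, of astrocytes for 13 of 13 and of endothelial cells for 15 of 19. The endothelial probes of Cdh5, Robo4 and Rgs5, which mark the endothelium or its mural cells, were not detected on any array, and Pecam1 and Kdr had no probe. The 12 hrs array stood apart by genes of the choroid plexus, the tissue that makes cerebrospinal fluid. It was also the highest for genes of erythrocytes, which were high on other arrays too. Of 12 choroid plexus markers 7 were at least 2-fold higher than normal at 12 hrs, where 3.16% of all detected genes were. The summed intensity of the 12 markers was 37214 against 17979. Hbb, the beta chain of hemoglobin, read 205 on the normal array and 5449, 2780, 708 and 695 on the arrays of 12, 24, 48 and 72 hrs.

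Brain endothelial cells are sealed to each other by tight junctions, in which claudins and occludin span the membrane and scaffold proteins such as ZO-1 tie them to the cytoskeleton. Small molecules then cross mainly through transporters, among them efflux pumps that return drugs to the blood and carriers that take up hormones and nutrients. After stroke this barrier becomes leaky, which is one reason why its genes are followed over time.

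Promoter windows of RefSeq (build GRCr8, 250 bases before to 50 after the gene start) were found for 8 of the 9 genes. Those of Cldn5 and Abcg2 are printed because these genes had the most similar time courses among the barrier genes, and that of Cldn10 because its course differed from both. Cldn5 lies at chr11:95718549-95718848 on the minus strand, Abcg2 at chr4:89075224-89075523 on the plus strand and Cldn10 at chr15:102269608-102269907 on the plus strand. Sequences run 5′ to 3′ along the gene, and capitals mark matches on either strand to the letters named after them.
Cldn5: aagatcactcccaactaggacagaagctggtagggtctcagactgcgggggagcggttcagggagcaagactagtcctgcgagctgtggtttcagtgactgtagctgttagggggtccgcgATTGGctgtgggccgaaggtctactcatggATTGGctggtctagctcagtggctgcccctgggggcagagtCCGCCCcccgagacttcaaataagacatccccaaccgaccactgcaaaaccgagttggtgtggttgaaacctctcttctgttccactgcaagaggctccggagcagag
Abcg2: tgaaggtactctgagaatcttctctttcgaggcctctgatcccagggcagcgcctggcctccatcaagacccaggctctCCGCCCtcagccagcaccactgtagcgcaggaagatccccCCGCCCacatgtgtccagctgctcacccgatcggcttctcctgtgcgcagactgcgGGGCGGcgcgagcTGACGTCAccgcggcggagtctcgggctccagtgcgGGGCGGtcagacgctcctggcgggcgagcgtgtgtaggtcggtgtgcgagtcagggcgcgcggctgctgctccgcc
Cldn10: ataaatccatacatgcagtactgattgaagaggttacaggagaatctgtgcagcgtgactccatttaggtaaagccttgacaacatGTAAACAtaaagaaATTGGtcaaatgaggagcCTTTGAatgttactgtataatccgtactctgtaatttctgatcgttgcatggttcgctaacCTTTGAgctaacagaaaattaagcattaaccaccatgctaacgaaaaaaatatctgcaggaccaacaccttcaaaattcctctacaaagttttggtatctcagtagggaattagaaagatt

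Short motifs were searched on both strands, and they were chosen after the sequences were seen. The GC box (GGGCGG), bound by Sp1, was found in 33.1% of all 33469 windows, 1 time in that of Cldn5 and 4 times in that of Abcg2. The CCAAT box, searched by these letters, was found in 37.5% of windows, 2 times in that of Cldn5 and 1 time in that of Cldn10. The cyclic AMP response element (TGACGTCA) was found in 1.83% of windows and 1 time in that of Abcg2. The forkhead core (GTAAACA) was in 3.78% of windows and 1 time in that of Cldn10, which also held 2 TCF/LEF cores (CTTTGA), a motif in 16.1% of windows. None of the 3 windows printed held the letters of the TATA box (TATAAA), which 14.2% of all windows did. They also lacked the hypoxia response core (ACGTG), in 19.3% of windows, and the ETS core (CCGGAA), in 15% of windows. GC content was 68.0% for Abcg2, 57.7% for Cldn5 and 37.0% for Cldn10, with a median of 51.7% over all windows. A match is a description of the letters and was not tested for any role.

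Of the 7 genes, 4 were at least 2-fold away from normal on the 12 hrs array, more than at any later time. Cldn10, Slco1c1 and Abcg2 were lower and Cldn1 was higher, although Cldn1 was dim and no longer past 2-fold with an offset of 50 (log2 difference 0.84). At 24 and 48 hrs Cldn10 and Slco1c1 were at least 2-fold lower, and from 72 hrs on only Slco1c1 was. All comparisons with normal use the same single normal array and carry no test, since no array was repeated. As a scale for the spread, the closest pair of arrays, 72 and 120 hrs, differed with an SD of 0.31 on the log2 scale over all genes detected on both. Against the normal array this SD was larger, from 0.48 at 12 hrs to 0.81 at 120 hrs. In bulk tissue, fewer cells of a type and less RNA per cell cannot be told apart.

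At 12 hrs 3 of 7 genes were at least 2-fold lower, where 0.903% of 9190 detected genes were, and 1 of 7 was at least 2-fold higher, where 3.16% were. At 24 hrs 2 of 7 were lower, against 2.69% of all genes, and 0 were higher, against 4.55%. At 48 hrs 2 of 6 were lower (2.63% of all genes) and 0 higher (6.04%), and at 72 hrs 1 of 6 was lower (4.01%) and 0 higher (8.28%). At 120 hrs 1 of 6 was lower (4.78%) and 0 higher (9.09%), and at 168 hrs 1 of 7 was lower (0.914%) and 0 higher (5.01%). The median log2 difference of the barrier genes was -0.87 at 12 hrs and -0.62 at 24 hrs, and it lay between -0.32 and -0.07 from 48 to 168 hrs. The median over all detected genes stayed between -0.07 and -0.02 at these times. The low side of the set was therefore deepest on the 2 acute arrays, and at the later times it rested on Slco1c1 and Cldn10.

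**Figure D1:**
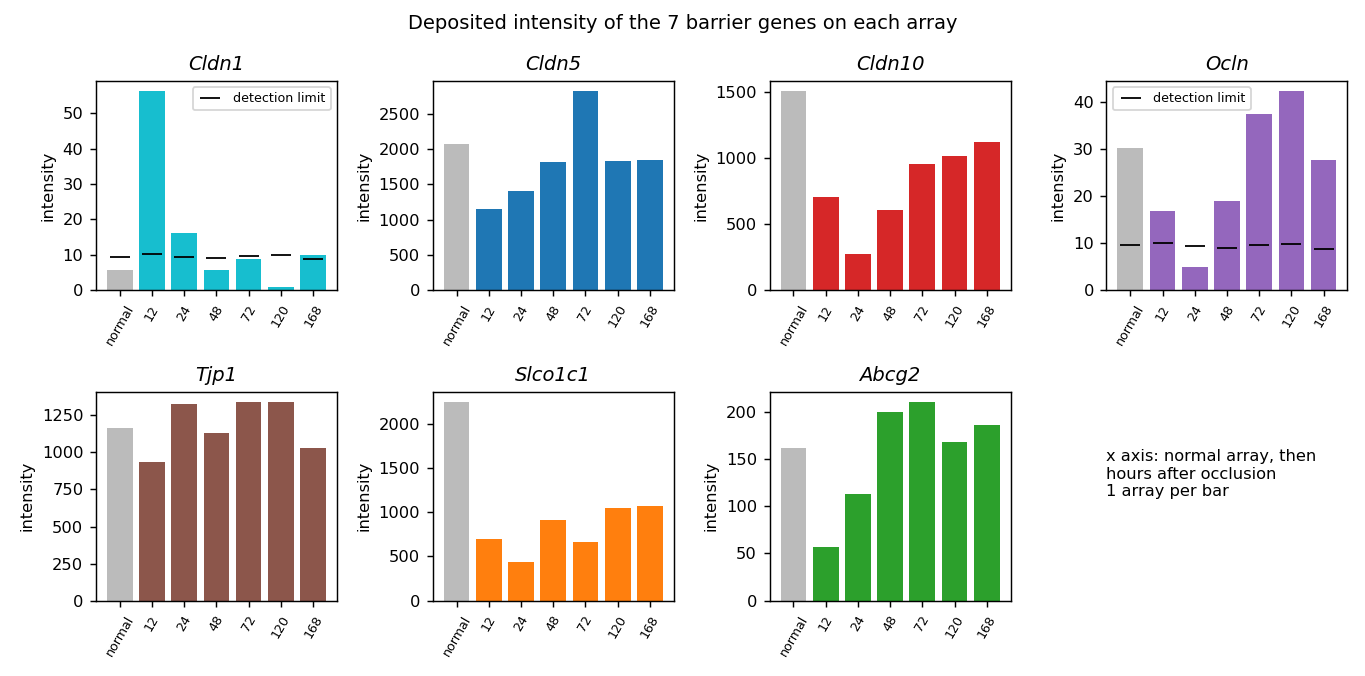
Deposited intensity (arbitrary linear units, y axis, starting at 0 in each panel) of the 7 barrier genes on the normal array (grey) and on the arrays of 12 to 168 hrs (x axis), with 1 array per bar and no error bars. Short black lines in the Cldn1 and Ocln panels are the detection limits of 8.72 to 10.1. Slco1c1 is below its normal value of 2248 on all 6 later arrays, and Cldn1 reaches 56.4 on the 12 hrs array only.

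Cldn5 encodes claudin-5, the main strand protein of tight junctions in brain endothelium. Its intensity was 2071 on the normal array and 1155, 1406, 1818, 2824, 1834 and 1850.5 on the arrays of 12, 24, 48, 72, 120 and 168 hrs. The 2 acute arrays were the lowest of the 7, and the 72 hrs array was the highest. After normalization Cldn5 was 1.83-fold lower than normal at 12 hrs, a log2 difference of -0.87, and 1.53-fold lower after 24 hrs. From 48 hrs on the log2 difference lay between -0.40, at 120 hrs, and 0.12. The SD of all genes between the normal and the 120 hrs array was 0.81. Cldn5 did not pass the 2-fold rule at any time. Only 1.46% of detected genes had a lower log2 difference than Cldn5 at 12 hrs, and 64.5% had one at 72 hrs.

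Cldn10 encodes claudin-10, which forms ion-selective pores in epithelia and whose RNA is found in astrocytes and other glia as well. It read 1505 on the normal array and then 706, 271, 606, 953, 1011 and 1123 in order of time. Every later array was below normal, the 24 hrs array by most, and from 48 hrs on each array was above the one before it. Against normal, Cldn10 was lower by factors of 2.13, 5.52 and 2.53 on the arrays of 12, 24 and 48 hrs. At 24 hrs its log2 difference of -2.46 ranked 3 from the lowest of 9339 genes. At 72, 120 and 168 hrs it was 1.92-fold, 1.68-fold and 1.35-fold lower and no longer past the 2-fold rule. The step from 24 to 168 hrs was 4.09-fold upward, and at 168 hrs the deposited intensity was 74.6% of normal.

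Cldn1 encodes claudin-1, a tight junction protein of epithelia that is also found in choroid plexus. Its intensity was 5.54 on the normal array, below the detection limit, and 56.4, 16.3, 5.70, 8.83, 0.728 and 9.99 on the later arrays. It was detected at 12, 24 and 168 hrs, with the 12 hrs array far above the others and the 168 hrs array just over its limit of 8.72. Because normal was undetected, the fold is a bound, at least 2.29-fold higher at 12 hrs and at least 1.15-fold higher at 24 hrs. The high 12 hrs array was also the array high for choroid plexus markers. Cldn2, the claudin of choroid plexus epithelium, read 63.3 there and 14.4 on the normal array, and Ttr, the thyroid hormone carrier secreted by that tissue, read 18245 and 5456. At 12 hrs 7 of 12 choroid plexus markers were at least 2-fold higher (3.16% of all genes), with a median log2 difference of 1.22. At 24 hrs 0 of 12 were (4.55% of all genes), with a median of 0.11. Over the 7 arrays the summed intensity of the list ranged from 7564 to 37214, and its defining genes Ttr, Kl and Folr1 were detected on all 7. Their part in the Cldn1 value was not tested.

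Ocln encodes occludin, a strand protein that regulates how tight the junction is. It read 30.2 on the normal array and 16.8, 5.00, 19.0, 37.4, 42.3 and 27.6 on the later arrays, so it was dim throughout. The 24 hrs value was below the detection limit, and the 3 arrays from 12 to 48 hrs were the lowest of the 7. Against normal, Ocln was 1.40-fold lower at 12 hrs, at least 1.70-fold lower on the 24 hrs array and 1.33-fold lower on that of 48 hrs. From 72 hrs on its log2 difference lay between -0.09 and 0.07. None of these differences passed the 2-fold rule as reported, but the fold at 24 hrs is a bound. Without normexp the log2 difference at 24 hrs was -1.27, past 2-fold.

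Tjp1 encodes ZO-1, the scaffold that binds claudins and occludin at the inner face of the membrane. It read 1163 on the normal array and 933, 1327, 1128, 1341, 1342 and 1030.1 on the later arrays. No time stood out, and the normal array lay in the middle of the 7. Its largest log2 difference was -0.36 at 12 hrs, and the other 5 lay between -0.19 and 0.12, within the SD between the closest arrays. Among the 5 junction genes the scaffold therefore varied least, over a log2 range of 0.48 against 0.99 for Cldn5 and 2.46 for Cldn10.

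Slco1c1 encodes OATP1C1, which carries thyroxine from the blood into brain endothelium and, in rodents, is found in astrocytes too. Its intensity was 2248 on the normal array and 699, 435, 918, 663, 1051 and 1073 on the later arrays. The normal array was above all 6 others, the 24 hrs array was the lowest, and the 72 hrs array was lower than its neighbours. Slco1c1 was lower than normal by factors of 3.24 and 5.38 on the 2 acute arrays and of 2.54, 4.08, 2.44 and 2.13 on the 4 recovery arrays, in order of time. Its rank from the lowest log2 difference was 14 of 9190 genes at 12 hrs, 4 of 9339 at 24 hrs and 57 of 9194 at 168 hrs. At 168 hrs its deposited intensity was 47.7% of normal, against 74.6% to 115% for Cldn10, Cldn5, Tjp1, Ocln and Abcg2.

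Slco1c1 was the only barrier gene at least 2-fold lower than normal at all 6 times. Of 8656 genes detected on the normal array, 20 met that rule (0.231%), Slco1c1 included. The others were Adcy5, Adora2a, Akap5, Asic4, Coch, Drd1, Gng7, Lrrc10b, Lrrtm3, Neu2, Pde10a, Pde1b, Ppp1r1b, Rasd2, Rgs9, Rxrg, Scn4b, Ube2b and Zswim5. All 6 comparisons share the 1 normal array, and the part of the brain region taken in these values was not tested. Slco1c1 and Slco1a4, which has no probe here, both lie on chromosome 4, as do Abcb1a and Abcg2. Other genes of thyroid hormone handling were not past 2-fold on the low side on the acute arrays. Of 9 detected at 12 hrs 0 were at least 2-fold lower (0.903% of all genes). The 1 higher gene (3.16%) was Ttr, also a choroid plexus marker. At 24 hrs 0 of 9 were past 2-fold either way, but their median log2 difference was -0.23, with Dio2 at -0.75. At 120 hrs 3 of 8 were lower (4.78% of all genes), Ttr among them, and so was Thrb, the thyroid hormone receptor beta, at 246 against 607 on the normal array. Slc7a5, a carrier of large neutral amino acids and thyroid hormone, had the highest mean difference of the list and read 129 on the normal array and 306 at 24 hrs.

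Abcg2 encodes BCRP, an efflux pump at the blood-facing side of brain endothelium. It read 161 on the normal array and 57.0, 113, 200.1, 211, 168 and 185 on the later arrays. The 2 acute arrays were the lowest, and all 4 recovery arrays were above normal in deposited intensity. After normalization Abcg2 was 2.40-fold lower than normal at 12 hrs, where it ranked 42 from the lowest of 9190 genes, and 1.48-fold lower at 24 hrs. At 48, 72 and 168 hrs its log2 difference was between 0.03 and 0.14, and at 120 hrs it was -0.22. The change from the 12 to the 168 hrs array was 2.55-fold upward.

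**Figure D2:**
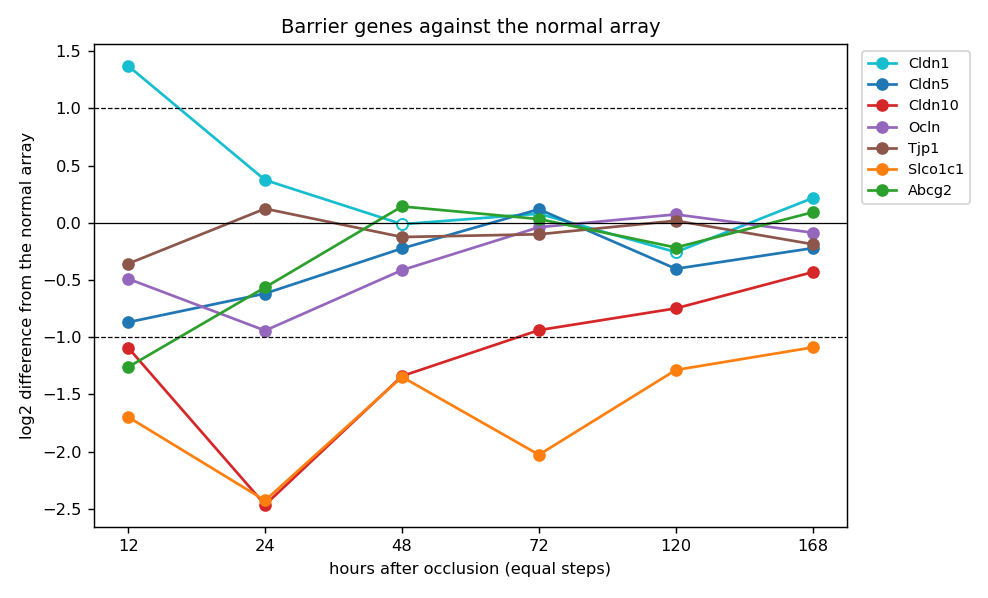
Log2 difference of each barrier gene from the normal array (y axis, normalized values) by hours after occlusion (x axis, equal steps), with 1 array per point. Dashed lines mark 2-fold, and open points were not detected on either array. Cldn10 and Slco1c1 meet at -2.46 and -2.43 on the 24 hrs array, and only Slco1c1 is below the lower dashed line at 168 hrs.

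The depth of the early difference and the time of the lowest value were not shared by all genes. Abcg2, Cldn5 and Tjp1 had their lowest value on the 12 hrs array, as did 14.8% of genes detected on all 7 arrays. Cldn10, Slco1c1 and Ocln had theirs on the 24 hrs array, where 12.7% of genes detected on all 7 arrays were lowest (Ocln is not among these). Cldn10 and Slco1c1 were below normal on all 6 later arrays, as were 28.2% of genes detected on all 7. Over the 7 arrays, which share 1 normal array, Pearson's r of the log2 levels was 0.88 between Cldn5 and Abcg2 and 0.85 between Cldn10 and Slco1c1. The other 8 pairs of genes detected on all 7 arrays had r between -0.29 and 0.52.

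The second question of the design was whether the genes differed between the acute and the recovery phase. All 4 recovery arrays were above both acute arrays for Cldn5, Ocln and Abcg2, as they were for 15.8% of the 9449 genes tested, and below both for Cldn1, as for 18.5%. The phases overlapped for Cldn10, Tjp1 and Slco1c1. The phases were compared with limma (two-sided, Benjamini-Hochberg over 9449 genes), with the 2 acute and 4 recovery time points standing in for replicates, so that the p-values measure the spread between time points and not between animals. None of the 7 genes passed the threshold of 0.05, and neither did any of the 9449 genes (0%). At an unadjusted p under 0.05, 1152 genes (12.2%) were higher and 1060 (11.2%) lower in recovery.

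The recovery mean of Abcg2 was higher than the acute mean by 0.93 on the log2 scale (SE 0.22, 95% interval 0.42 to 1.43, limma adjusted p = 0.0822). For Cldn5 the difference was 0.56 (SE 0.17, interval 0.17 to 0.95, limma adjusted p = 0.117), and for Ocln it was 0.60 (SE 0.18, interval 0.17 to 1.03, limma adjusted p = 0.125). The 95% intervals of these 3 genes, which are not adjusted for the number of genes, lay above 0. For Ocln 1 of the 2 acute values, that of 24 hrs, was below the detection limit, so the size of its difference rests partly on background. Cldn1 was below the limit on 3 of the 4 recovery arrays, so its fitted difference of -0.87 (limma adjusted p = 0.129) is largely a distance to background and is not a measured size. Cldn10 had a difference of 0.91 with an SE of 0.39 (limma adjusted p = 0.220), and Slco1c1 had 0.62 with an SE of 0.30 (limma adjusted p = 0.261). The intervals of Cldn10, -0.02 to 1.85, and of Slco1c1, -0.09 to 1.34, included 0 and also differences larger than those of Cldn5 and Ocln. Tjp1 differed by 0.02 (interval -0.35 to 0.39, limma adjusted p = 0.953), a value that changed sign when the 12 hrs array (-0.22) or the 120 hrs array (-0.02) was left out. Several of the other differences also rested on 1 acute array. Without the 24 hrs array that of Cldn10 was 0.23, that of Slco1c1 0.26 and that of Ocln 0.37, and without the 12 hrs array that of Abcg2 was 0.58 and that of Cldn1 -0.37. Without the 12 hrs array that of Cldn10 was 1.60 and that of Slco1c1 0.99, and without the 24 hrs array that of Cldn1 was -1.36.

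**Figure D3:**
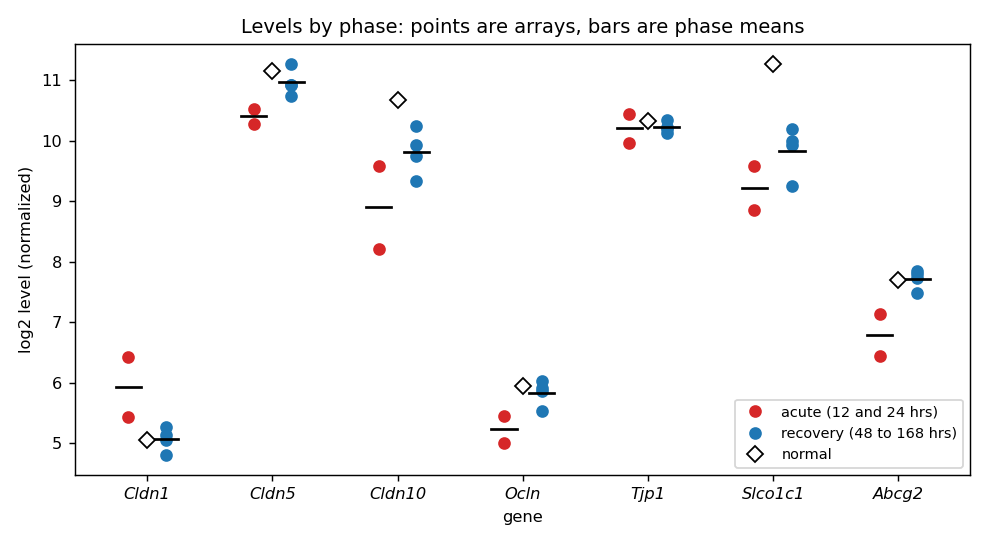
Normalized log2 level (y axis) of each barrier gene (x axis) on the 2 acute arrays (red), the 4 recovery arrays (blue) and the normal array (open diamond), with bars at the phase means. Levels of different genes come from different probes and are not to be compared. Red and blue points do not overlap for Cldn1, Cldn5, Ocln and Abcg2, and the normal point of Slco1c1 is above all 6 others.

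The genes with the most similar time courses were sought among about 1008 genes detected on all 7 arrays with an SD of at least 0.5 on the log2 scale. These correlations are over 7 arrays and are given as a description. For Cldn5 the nearest were Abcg2 (Pearson's r 0.88), Lpar4, a lysophosphatidic acid receptor (0.82), and Itm2a, a membrane protein enriched in brain endothelium (0.81). For Abcg2 the nearest were Slc38a5, a glutamine transporter (0.89), Itm2a (0.83) and Lpar4 (0.83). Cldn5 and Abcg2 thus shared 2 of their nearest genes. Itm2a read 1965 on the normal array, 380 at 12 hrs and 479 at 24 hrs, and between 1114 and 1567 at the later times.

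Cldn10 was nearest to Ermn, a cytoskeletal protein of myelinating oligodendrocytes (r 0.996), to Map2k6, a stress kinase (0.98), and to Plpp3, a lipid phosphatase of astrocytes (0.98). There were 19 genes with r above 0.9 to Cldn10, 7 with r above 0.9 to Slco1c1, and 0 to Cldn5, Abcg2 or Tjp1. Slco1c1 was nearest to Abcd2, a fatty acid transporter of peroxisomes (0.94), Bhlhe22, a neuronal transcription factor (0.93), and Vtn, which encodes vitronectin (0.92). Tjp1, with an SD of 0.16, had no close neighbour, its highest r being 0.62 with Hmgn1.

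In a list of 32 strand, adhesion and scaffold genes besides the 5 above, no gene passed the 2-fold limit at any time. Cldn2, also a claudin, was counted with the choroid plexus markers and not in this list. It was past the limit at 12 hrs, with a log2 difference of 1.12. Of 25 genes of the list on the array, 17 or 18 were detected at each comparison. Of these 0 were at least 2-fold higher or lower, against 3.16% to 9.09% of all genes higher and 0.903% to 4.78% lower. Their median log2 difference lay between -0.06 and 0.07. F11r, which encodes the adhesion molecule JAM-A, had the highest mean difference and read 149 on the normal array and 385 at 72 hrs, a log2 difference of 0.93. Pard3, a polarity scaffold, had the lowest, and read 124 on the normal array and 60.5 at 48 hrs, a log2 difference of -0.92. Esam, an endothelial adhesion molecule, reached 0.91 at 24 hrs, and Cldn9 reached 0.95 at 120 hrs. These 4 genes came close to the 2-fold limit. Over all genes detected on both arrays, the SD of the difference from normal was 0.60 at 24 hrs and 0.64 at 48 hrs. It was 0.74 at 72 hrs and 0.81 at 120 hrs. Cldn11, the claudin of myelin, read 1669 on the normal array and had log2 differences between -0.18 and 0.32.

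Other efflux pumps differed from Abcg2 by the 2-fold rule, which Abcg2 passed on the low side at 12 hrs. Of 10 on the array 9 were detected, and 0 were at least 2-fold lower at any time. Abca2 came close, with log2 differences of -0.96 at 24 hrs and -0.99 at 48 hrs. Abcg1 was below normal on both acute arrays (-0.42 and -0.65), as Abcg2 was, and stood at 1.40 at 120 hrs. The median of the 9 was -0.29 at 12 hrs, -0.09 at 24 hrs and 0.93 at 120 hrs. None of the 9 was at least 2-fold higher on the acute arrays, and the count was 2, 3, 4 and 2 on the arrays of 48, 72, 120 and 168 hrs, where 6.04%, 8.28%, 9.09% and 5.01% of all genes were. Abcg4 had the lowest mean difference and read 175 on the normal array and 112 at 72 hrs. Abca1, which exports cholesterol, read 25.5 on the normal array and 119, 509.6 and 687 on the arrays of 48, 72 and 120 hrs. Abcc3, an exporter of organic anions, read 17.8 on the normal array and 164 at 120 hrs. Abcb1b, the second rat gene for P-glycoprotein, was dim, at 19.3 on the normal array, between 21.0 and 30.4 from 12 to 72 hrs, 74.4 at 120 hrs and 43.0 at 168 hrs. Its log2 difference at 120 hrs was 0.93, just short of 2-fold. Of 11 markers of macrophages and microglia, 3, 7, 9, 10, 11 and 10 were at least 2-fold higher in order of time. The shares of all genes were 3.16%, 4.55%, 6.04%, 8.28%, 9.09% and 5.01%. Some of these markers were thus past the limit before any pump was. On each acute array 1 marker was at least 2-fold lower, as were 0.903% and 2.69% of all genes. The summed intensity of the markers was 3499 on the normal array, 13832 at 24 hrs and 54243 at 120 hrs. Across the 6 later arrays that sum lay between 6304 and 54243, and its part in the pump values was not tested.

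Of 25 uptake carriers on the array 21 or 22 were detected at each comparison. Past the 2-fold limit on the low side were 2 of 21 on the 12 hrs array (0.903% of all genes) and 2 of 22 on the 24 hrs array (2.69%), and none was lower at the later times. The 1 carrier at least 2-fold higher, at 120 and 168 hrs, was Slco2b1. Slco2b1, an organic anion carrier of the same family as Slco1c1, read 193 on the normal array, 60.4, 93.0 and 141 at 12, 24 and 48 hrs, and 421, 1064 and 673 at 72, 120 and 168 hrs. It was therefore low where Slco1c1 was low in the acute phase, but above normal from 72 hrs, where Slco1c1 was still below. The 120 hrs array, its highest, was also the array highest in summed macrophage and microglia markers (54243). The part of these cells in the Slco2b1 values was not tested. Slc38a5 had a log2 difference of -1.13 at 12 hrs and Slc27a1, a fatty acid carrier, one of -1.31 at 24 hrs. Slc3a2, the heavy chain of the large neutral amino acid carriers, had the highest mean difference, at 2765 on the 12 hrs array and 3080.1 at 72 hrs against 1584 on the normal array. Slc38a3, a glutamine carrier, had the lowest, at 35.4 on the 48 hrs array against 79.4 on the normal array. The probe of Slc2a1, the glucose carrier GLUT1 of brain endothelium, was not detected on any of the 7 arrays.

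Of 9 detected genes of receptor transport and vesicles, 1 was at least 2-fold higher at 12 hrs, 1 at 120 hrs and 0 at the other times, and 0 were lower, against the shares of all genes given above. The gene at 12 hrs was Plvap, a protein of leaky vessels that is lost from mature brain endothelium. It read 78.3 on the normal array and 232 at 12 hrs, a log2 difference of 1.25, and between 87.4 and 146 later. Plvap is also expressed in choroid plexus vessels, and its high array was the one with high choroid plexus markers. The gene at 120 hrs was Fcgrt, the neonatal Fc receptor, at 841 against 259 on the normal array, a log2 difference of 1.36. Lrp8, a reelin receptor, had the lowest mean difference, at 44.9 on the 72 hrs array against 68.5 on the normal array.

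Of 12 detected genes of Wnt and Norrin signaling, which maintains the barrier, 1 was at least 2-fold higher and 1 lower at 24 hrs (4.55% and 2.69% of all genes), and 0 at the other times. The lower gene was Ndp, the gene for Norrin, which read 623 on the normal array, 314 at 12 hrs, 316 at 24 hrs and between 416 and 578 later. The higher gene was Wnt7b, a Wnt ligand, which read 2.97 on the normal array, below the detection limit, and 23.0, 46.9, 34.3, 14.5, 13.8 and 4.14 on the later arrays. Its log2 difference at 24 hrs was 1.27, and against the detection limit it was at least 1.97-fold higher. The 2 genes thus differed from normal in opposite directions on the acute arrays.

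**Figure D4:**
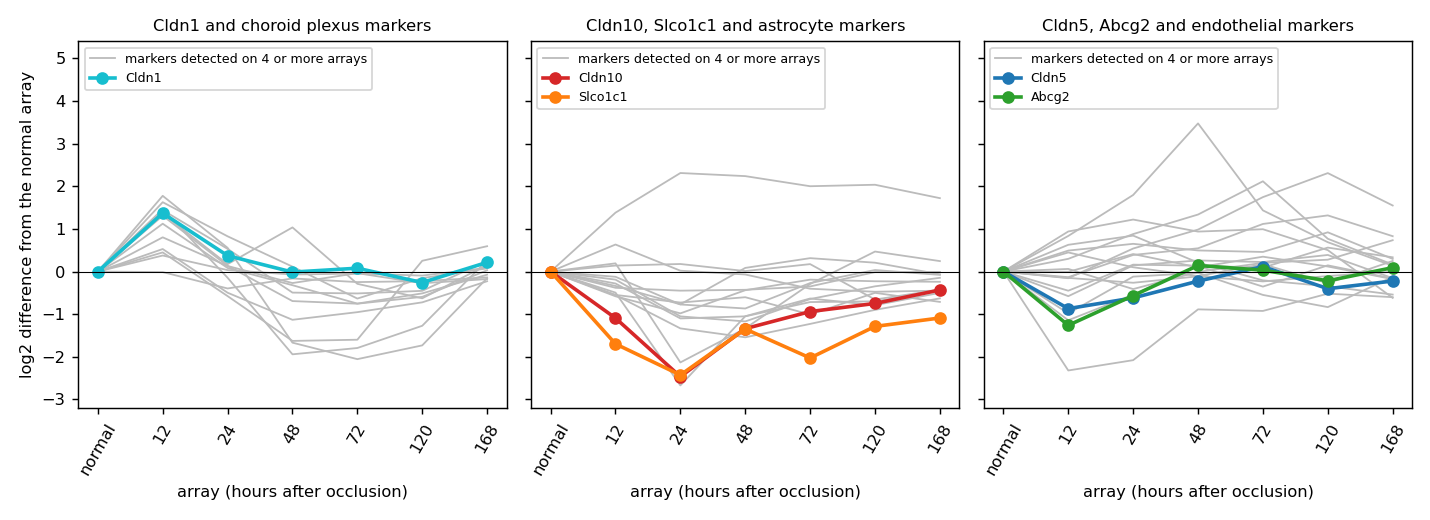
Log2 difference from the normal array (y axis) by array (x axis, hours after occlusion), for barrier genes (coloured) and for markers of choroid plexus, astrocytes and endothelial cells detected on at least 4 arrays (grey, 1 line per gene). Cldn1 and 7 of 12 choroid plexus markers are at least 2-fold higher at 12 hrs, where 3.16% of all genes are. The grey astrocyte line above all others is Gfap.

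Markers of the cells that carry these genes are given beside them. Of all genes, 3.16% were at least 2-fold higher at 12 hrs and 4.55% at 24 hrs, and 0.903% and 2.69% were lower. Of 16 endothelial markers detected at 12 hrs, 2 were at least 2-fold lower, Itm2a and Emcn, a sialomucin of capillaries, and 0 higher, with a median log2 difference of -0.07. Their medians at the later times lay between -0.00 and 0.28, and the summed intensity was 3421 on the normal array, 1863 at 12 hrs, 2769 at 24 hrs and between 3079 and 4826 from 48 hrs. Itm2a alone made up 1965 of the normal sum. Without it, an alternative added after the values were seen, the sum was 1455 on the normal array, 1483 at 12 hrs and 2289.98 at 24 hrs. It lay between 1762 and 3557 later. Single markers in this sum went both ways at 12 hrs. Emcn read 450 on the normal array and 197 at 12 hrs, Icam2 151 and 98.4, and Sox18 67.8 and 24.9. Cd93 read 179 and 390, Vwf 199 and 263, and Nos3 70.3 and 130. Vwf, von Willebrand factor, read 199 on the normal array and 1214 at 72 hrs, the array on which Cldn5 was highest. Fli1, an endothelial and blood cell transcription factor, read 116 on the normal array and 802 at 120 hrs, and Ly6c was undetected on the normal array and read 219.7 at 48 hrs. On the acute arrays, where Cldn5 and Abcg2 were low, the endothelial median was -0.07 at 12 hrs and 0.28 at 24 hrs. At 24 hrs 2 of 16 markers were at least 2-fold higher and 1 lower. The part of endothelial content in the Cldn5 and Abcg2 values was not tested.

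Of 13 astrocyte markers, the numbers at least 2-fold lower were 0, 5, 5, 2, 0 and 0 in order of time. The shares of all genes lower were 0.903%, 2.69%, 2.63%, 4.01%, 4.78% and 0.914%. The median differences of the astrocyte markers were -0.28, -0.77, -0.60, -0.35, -0.35 and -0.24 in order of time. Gjb6, a gap junction protein of astrocytes, read 2095 on the normal array and 334 at 24 hrs, a log2 difference of -2.67, next to -2.46 for Cldn10 and -2.43 for Slco1c1. The water channel gene Aqp4 was nearer to normal, at -0.77, and Gfap, the filament protein of reactive astrocytes, was at least 2-fold higher at all 6 times. The summed astrocyte intensity lay between 44879.6 and 60209 on the later arrays, against 45263 on the normal array. Without Gfap, left out after the values were seen, the sum was 41458 on the normal array, 34948 at 12 hrs and 24327 at 24 hrs. It was 27789.7 at 48 hrs and between 35089.5 and 39879 later. The sum without Gfap was thus lowest at 24 hrs, while the sum with Gfap was lowest at 12 hrs (44879.6, against 45062 at 24 hrs). Slc7a10, an amino acid carrier of astrocytes, had the lowest mean difference and read 232 on the normal array and 71.9 at 48 hrs. Of 9 oligodendrocyte markers, 7 were at least 2-fold lower at 24 hrs and 4 at 48 hrs, with medians of -1.22 and -0.89 and summed intensities of 14973 and 16107 against 30876 on the normal array. The part of these cells in the Cldn10 and Slco1c1 values was not tested.

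The remaining lists are given for the cells and states around the barrier. Of all genes 3.16%, 4.55%, 6.04%, 8.28%, 9.09% and 5.01% were at least 2-fold higher in order of time. The shares lower were 0.903%, 2.69%, 2.63%, 4.01%, 4.78% and 0.914%. Of 6 endothelial adhesion and activation genes, 4 were at least 2-fold higher at 12, 24 and 48 hrs and 3 at the later times, with medians between 1.35 and 1.92 and 0 lower. Icam1, which binds leukocytes, read 38.7 on the normal array and between 147 and 374 later, and Lcn2 had the highest mean difference, at 22.3 and between 461 and 3374. Vcam1 had the lowest and was not past 2-fold at any time. Sele, undetected on the normal array, did not pass the rule at any time either. The genes past 2-fold at all 6 times were Icam1, Lcn2 and Ch25h. Of 7 detected mural cell markers, 1 to 3 were at least 2-fold higher at each time and at most 1 lower, with Tagln, a contractile protein, at 134 on the normal array and 1823 at 72 hrs, and Anpep, an aminopeptidase, at 11.7 and 362. Of 8 or 9 detected markers of meninges and fibroblasts, 0 were at least 2-fold higher up to 48 hrs, and 4, 6 and 5 were at 72, 120 and 168 hrs, with Col3a1, a collagen, at 74.5 on the normal array and 841 at 120 hrs. Of 12 neuron markers, 6 were at least 2-fold lower at 120 hrs and 0 higher at any time, with medians of -0.02 at 12 hrs and -0.97 at 120 hrs. Of 3 or 4 detected erythrocyte markers, 2 were at least 2-fold higher from 12 to 72 hrs and 2 lower at 120 and 168 hrs. The part of these cells in the values of the barrier genes was not tested.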

How the data were processed

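The values were the deposited intensity of each probe on 7 arrays. The authors used BeadStudio and subtracted background, while GenomeStudio 1.8.0 is named in the submitters' processing notes. A normalization to 5S rRNA is named without saying for which arrays. A table of 48 columns from 12 arrays whose names match no sample was not used. Probes were named through the platform annotation (13793 of 22523 with 1 symbol, 8730 with none), and a gene was represented by its brightest probe.

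Values were corrected with normexp (saddle, limma 3.58.1, R 4.3.3), given an offset of 16, taken to log2 and quantile normalized. Folds of dim genes are thereby understated. On each array negative values were mirrored, and their 98th percentile was the detection limit. A gene counted as higher or lower when at least 2-fold away from normal and detected on either array. If the dimmer of 2 arrays did not detect a gene, the lowest level detected on that array took the place of a lower value, which makes the fold a bound (at least). The phases were compared by lmFit and eBayes of limma (trend and robust set, Benjamini-Hochberg adjustment) over 9449 genes detected on at least 2 of 6 arrays. The fit was tested on simulated data. The precision is limited by 1 array per group.

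The genes and the 16 other lists were chosen with earlier results of these data known. All barrier genes are named. A rule gave for each other list the genes with the highest and lowest mean difference and up to 2 past 2-fold at most times, and of these the pathway genes and some of the cell markers are described. The 3 most similar genes of each barrier gene were also named by rule. Other genes were chosen after their values were seen. Alternatives were an offset of 50, median scaling or no scaling between arrays, no normexp, a limit of 1.5-fold and a stricter detection limit. Other filters and moderation, and leaving out each array, were tried for the phases.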

Additional observations from a re-analysis of the deposited data

How the results depend on the processing

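Of 42 log2 differences from normal, 39 kept their sign under the 4 alternatives of scaling, background correction and offset. The exceptions were Ocln at 72 hrs (-0.05 to 0.18), Tjp1 at 72 hrs (-0.10 to 0.20) and Abcg2 at 120 hrs (-0.23 to 0.05). Slco1c1 stayed at least 2-fold lower at all 6 times under these 4 alternatives, with -1.01 as its value nearest to the limit, at 168 hrs, and Cldn10 at 24 hrs ranged from -2.51 to -2.34. With an offset of 50 the number of barrier genes at least 2-fold higher at 12 hrs was 0 in place of 1, since Cldn1 is dim and its log2 difference became 0.84. Without normexp the number lower at 24 hrs was 3 in place of 2, since the log2 difference of Ocln became -1.27. With a limit of 1.5-fold the number lower was 4 in place of 2 at 24 hrs, 2 in place of 1 at 72 hrs and 2 in place of 1 at 120 hrs. Each barrier gene had 1 probe, so the choice of the brightest probe did not affect these genes. Without normalization between arrays the median of all genes moved to 0.18 at 72 hrs and 0.13 at 120 hrs.

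No barrier gene passed the threshold between the phases under any of 12 alternatives, the lowest adjusted p by limma being 0.0612 for Ocln without the 48 hrs array. When each array was left out in turn, the phase difference of Tjp1 ranged from -0.22 (without the 12 hrs array, reversed) through -0.02 (without the 120 hrs array, reversed) to 0.26, and that of Abcg2 from 0.58 to 1.27. It ranged from 0.44 to 0.69 for Cldn5, from 0.37 to 0.83 for Ocln, from 0.23 to 1.60 for Cldn10, from 0.26 to 0.99 for Slco1c1 and from -1.36 to -0.37 for Cldn1. The number of genes past the threshold between phases by limma, 0 as reported, was 13 with no filter on dim genes, and between 0 and 565 when an array was left out. It was 6 without the 24 hrs array and 565 without the 48 hrs array. The cause was not tested. No paired analysis was possible because each group has 1 array.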
